A study of Mus musculus with 3 samples.

Results

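The monocyte-attracting CC chemokines Ccl2, Ccl6, Ccl7, Ccl8, Ccl9, Ccl12 and Ccl24 and the receptor gene Ccr2 were followed across the immune cells of 4T1 mammary tumors. These 8 genes were taken by symbol from 32285 genes in the count matrices, by a rule that uses no measured value, although the genes were put forward with earlier results of these data known. Each of the 8 had counts in all 3 libraries. The study asked how blockade of the stress kinase p38 changes tumor immunity, and it profiled live CD45+ (7AAD-negative) cells sorted from primary tumors by 3' single-cell RNA sequencing. CD45 marks blood-derived cells, so tumor cells, fibroblasts and endothelium, which can also make these chemokines, were selected against by the sort.

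The hosts were female BALB/c mice aged 6 to 8 weeks in all 3 groups, and each received 200000 tumor cells in the fourth mammary fat pad. 4T1 is a mouse mammary carcinoma line that spreads to the lung and drives a strong myeloid response in its syngeneic host. The vehicle group carried 4T1-luc tumors with p38a intact and received DPBS, whereas the p38i group carried the same tumors and received LY2228820 (ralimetinib) by gavage at 30 mg/kg daily. Dosing began on day 4 and lasted 10 days. The p38KO group carried 4T1 cells of the clone p38a-KO-H9, in which Mapk14, the gene of p38a, was inactivated by CRISPR-Cas9. The host cells of this group kept their own Mapk14, the label gives its treatment as not applicable, and the group rests on 1 clone. Tumors were taken on day 14, and those of 3 mice were pooled into 1 library per group. Thus there was 1 library a group and no test between groups was possible. Intervals below are 95% intervals that cover counting error only, and library, pool, clone and condition cannot be told apart.

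CCR2 is the receptor that draws classical monocytes out of the bone marrow and into inflamed tissue and tumors, where many become macrophages. CCL2, CCL7 and, in the mouse, CCL12 are its ligands, while mouse CCL8 acts mainly through CCR8. CCL6 and CCL9 are myeloid chemokines that signal through CCR1, and CCL24 is an eotaxin that attracts eosinophils through CCR3. Macrophages and monocytes are the usual sources of these ligands in tumors, and CCL2 and CCL7 are known to be induced rapidly by inflammatory signals.

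Of the 7 ligands, 6 lie in CC chemokine clusters on chromosome 11. In GRCm38 (GENCODE M21), the protein-coding genes Ccl2 (chr11:82035571-82037453), Ccl7 (chr11:82045712-82047525), Ccl12 (chr11:82101845-82103400) and Ccl8 (chr11:82115185-82116799) are all on the plus strand, with Ccl11 between Ccl7 and Ccl12. Ccl12 and Ccl8 are neighbours 11784 bases apart. Ccl9 (chr11:83572919-83578636) and Ccl6 (chr11:83587882-83593087) are neighbours on the minus strand, 9245 bases apart. Ccl24 (chr5:135569937-135573049) is on the minus strand and Ccr2 (chr9:124101950-124113557) on the plus strand. RefSeq promoter sequence (GRCm38.p6) was matched for 5 members. The 250 bases before the start site are shown for the neighbours Ccl12 and Ccl8, whose levels moved apart in macrophages of the p38KO library, and for the neighbours Ccl9 and Ccl6, which were both lower in the same cells. Each is written 5′ to 3′ on the strand of its gene, and the windows are chr11:82101595-82101844 for Ccl12, chr11:82114935-82115184 for Ccl8, chr11:83578637-83578886 for Ccl9 and chr11:83593088-83593337 for Ccl6. Capitals mark matches, on either strand, to the motifs named after the sequences.
Ccl12: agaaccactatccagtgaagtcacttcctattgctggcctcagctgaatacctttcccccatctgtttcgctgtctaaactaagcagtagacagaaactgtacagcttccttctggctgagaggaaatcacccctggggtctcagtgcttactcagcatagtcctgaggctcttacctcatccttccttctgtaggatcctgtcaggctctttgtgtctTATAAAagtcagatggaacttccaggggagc
Ccl8: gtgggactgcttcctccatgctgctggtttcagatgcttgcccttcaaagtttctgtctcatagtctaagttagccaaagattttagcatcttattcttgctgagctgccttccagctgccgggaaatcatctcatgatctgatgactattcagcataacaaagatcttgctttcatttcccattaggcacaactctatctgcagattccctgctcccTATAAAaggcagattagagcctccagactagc
Ccl9: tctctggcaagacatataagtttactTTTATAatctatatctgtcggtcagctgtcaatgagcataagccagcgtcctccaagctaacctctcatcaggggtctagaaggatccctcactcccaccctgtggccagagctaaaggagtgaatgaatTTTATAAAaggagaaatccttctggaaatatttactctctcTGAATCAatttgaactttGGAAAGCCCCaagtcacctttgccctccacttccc
Ccl6: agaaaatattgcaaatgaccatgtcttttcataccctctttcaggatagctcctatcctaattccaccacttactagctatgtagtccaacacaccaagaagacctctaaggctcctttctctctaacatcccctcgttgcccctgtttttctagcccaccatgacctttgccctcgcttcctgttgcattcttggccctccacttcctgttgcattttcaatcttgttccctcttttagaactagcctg

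The search covered AP-1 (TGANTCA), CRE (TGACGTCA), STAT (TTCNNNGAA), ISRE (GAAA, any pair of bases, then GAAA), C/EBP (TTGCNNAA), the NF-kB consensus and the TATA box (TATAAA). Ccl12 and Ccl8 each held 1 TATAAA, which began 31 and 32 bases before the start site, against a match in 12.4% of all 32851 promoter windows of the same length. Ccl9 held 3 TATA box matches, of which a pair overlapped, 1 match to the AP-1 pattern 53 bases before the start (a pattern in 6.75% of windows) and 1 NF-kB consensus match 35 bases before it (3.90% of windows). The AP-1 pattern allowed any middle base, and the base in this match was A. No other match was found in these 4 windows, and Ccl6 had none. CRE was found in 1.55% of all windows, STAT in 7.02%, ISRE in 2.98% and C/EBP in 9.56%. Ccl9 and Ccl6 shared a run of 13 bases, gccctccacttcc, that began 14 and 55 bases before their start sites, while the longest run shared by any other pairing of the 4 windows was 7 to 9 bases. These matches are descriptions of sequence and say nothing of factor binding.

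The libraries held 4588 (vehicle), 6343 (p38i) and 5212 (p38KO) barcodes, with 21675352, 25996832 and 25997636 unique molecular identifiers (UMIs), each of which counts 1 captured transcript. Cells were kept if they had 1500 UMIs and 300 genes or more, with no more than 20% of counts mitochondrial, which left 3820, 4793 and 3859 cells. The median mitochondrial share was 0.671%, 0.968% and 2.10%, and library pairs shared 5 to 9 barcodes. Kept cells were gated by raw counts of a few genes. Macrophages had at least 2 C1qa counts, more than of Csf3r plus Cxcr2 and more than of Cd3e, whatever their Ly6c2 and Fn1 counts. Neutrophils had at least 2 counts of Csf3r plus Cxcr2, more than of Ly6c2 plus Fn1 and more than of Cd3e. Monocytes were gated last, with at least 2 counts of Ly6c2 plus Fn1. These had to be no fewer than those of Csf3r plus Cxcr2, with at most 1 C1qa count. In each library and gate the summed level of that gate's own independent markers was above that in the 5 other gates. Mapk14 was 33.7, 42.1 and 39.1 CPM in kept cells of vehicle, p38i and p38KO, which does not check the knockout, since the sorted cells are host cells.

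Levels are given as CPM, counts per 1000000 of the summed UMIs of a gate in a library. A 3' UMI count is not scaled to gene length. Levels are compared across gates and libraries, and between genes only as numbers of UMIs. A difference is called where the log2 ratio of CPM is at least 0.5 either way, its interval leaves out 0 and both libraries together hold at least 20 counts. The same rule was run on all genes to give a background. In vehicle tumors, Ccl8 and Ccl12 were highest in the macrophage gate, whereas Ccl6, Ccl9, Ccl24 and Ccr2 were highest in the monocyte gate. Ccl2 was found in both, at 513 CPM in vehicle macrophages and 241 CPM in vehicle monocytes. Ccl7 was 340 CPM in vehicle macrophages and 54.4 CPM in vehicle monocytes.

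**Figure D1:**
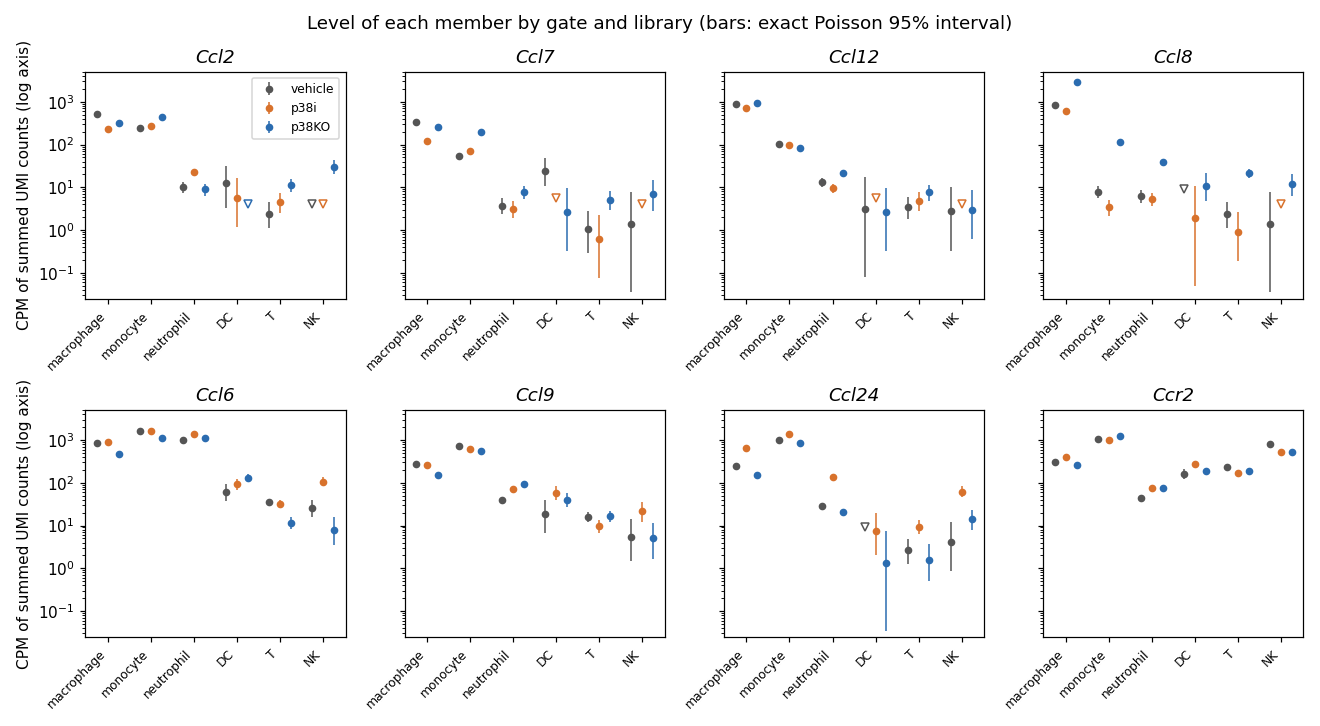
CPM (log axis) of each of the 8 members in 6 gates, by library (vehicle, p38i and p38KO), with exact Poisson 95% intervals; open triangles mark gates with 0 counts, drawn at the level of 3 counts. Ccl8 stands at 2878 CPM in p38KO macrophages against 828 CPM in vehicle, and no ligand passes 107 CPM in T or NK cells.

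Macrophages held nearly all Ccl8. Of the library's Ccl8 UMIs in kept cells, 97.0% (vehicle), 96.4% (p38i) and 97.5% (p38KO) lay in the macrophage gate, although that gate was 4.87%, 4.17% and 16.0% of kept cells. Ccl12 was similarly placed, with 85.0%, 75.6% and 95.4% of its UMIs in macrophages. Ccl24, in contrast, was mostly monocytic, with 78.5%, 70.1% and 63.7% of its UMIs in the monocyte gate. Ccl9 had 67.2%, 67.7% and 46.9% of its UMIs there. Ccl6 was the member shared most widely by the myeloid gates, since neutrophils held 29.0%, 33.3% and 31.8% of its UMIs beside those of monocytes and macrophages. The source of Ccl2 differed between libraries. Macrophages held 59.6% of Ccl2 UMIs in vehicle, 25.8% in p38i and 62.0% in p38KO, and monocytes held 35.3%, 64.0% and 30.5%. The Ccl7 share of macrophages likewise was 80.8% in vehicle, 42.1% in p38i and 74.6% in p38KO. These shares also follow the number of cells in each gate.

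**Figure D2:**
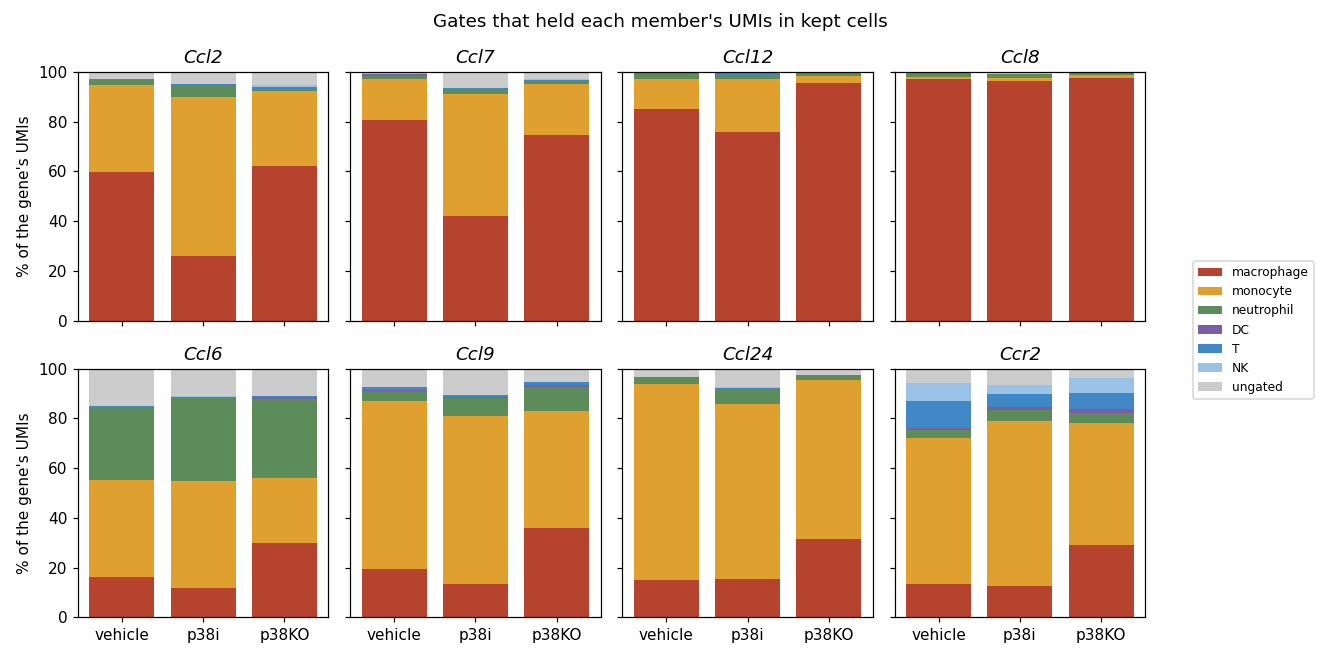
Percent of each member's UMIs in kept cells that lay in each gate (stacked bars, 0 to 100%) in the 3 libraries, with ungated cells in grey. Macrophages hold 96.4% to 97.5% of Ccl8, and the monocyte share of Ccl2 is 64.0% in p38i against 35.3% in vehicle.

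In the macrophage gate of the p38i library, the CCR2 ligands Ccl2 and Ccl7 were lower than in vehicle and Ccl24 was higher. Ccl2 was 513 CPM in vehicle and 226 CPM in p38i, a log2 ratio of -1.18 (interval -1.30 to -1.06). Ccl7 was 340 CPM in vehicle and 122 CPM in p38i, a log2 ratio of -1.48 (-1.65 to -1.32). Both were called lower, and both intervals lie wholly beyond the size needed for a call. Ccl12, the other CCR2 ligand, was 897 and 702 CPM, with a log2 ratio of -0.35 (-0.43 to -0.28) that was not called. Ccl24 was 242 CPM in vehicle and 637 CPM in p38i, a log2 ratio of 1.40 (1.28 to 1.51). Thus 3 of the 8 members were called, 1 higher and 2 lower, where 2.95% of all genes were called higher and 4.54% lower. Ccl8 (log2 ratio -0.43), Ccl6 (0.091), Ccl9 (-0.096) and Ccr2 (0.36) were not called. The median log2 ratio was -0.22 over the 8 members and -0.0057 over all genes tested. Immediate-early and heat-shock genes, a fixed list named here the dissociation response, were mostly lower in this gate too. Of 12 such genes, 8 were lower and 1 higher in p38i macrophages, with a median log2 ratio of -0.88. In monocytes the list median was -0.77 in p38i, where Ccl2 (0.19) and Ccl7 (0.36) were not called. It was -0.54 in p38KO monocytes, where Ccl2 (0.83) and Ccl7 (1.88) were called higher. The paper used a cold digestion meant to avoid transcripts induced by collagenase and heat. Fos was 203 CPM in vehicle and 88.7 CPM in p38i. The list name is only a label, and the cause of the lower values of these 12 genes was not tested. Their part in the Ccl2 and Ccl7 values was not tested either.

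In the macrophage gate of the p38KO library, Ccl8 was higher than in vehicle and 4 members were lower. Ccl8 was 828 CPM in vehicle, 616 CPM in p38i and 2878 CPM in p38KO, a log2 ratio of p38KO to vehicle of 1.80 (1.74 to 1.85). Its cluster neighbour Ccl12 was 948 CPM in p38KO, a log2 ratio of 0.080 (0.023 to 0.14) that was not called. Ccl6 was 855 CPM in vehicle and 465 CPM in p38KO (log2 ratio -0.88, -0.95 to -0.81). The neighbours Ccl6 and Ccl9 were both lower. Ccl9 was 272 CPM in vehicle and 155 CPM in p38KO (-0.81, -0.92 to -0.69). Ccl24, which was higher in p38i, was 152 CPM in p38KO (-0.67, -0.79 to -0.55). Ccl2 was 316 CPM in p38KO (-0.70, -0.78 to -0.61). The Ccl24 call was lost with a minimum gate count of 4 (-0.44), and the Ccl2 call with a minimum gate count of 1 (-0.48) or exclusive gates (-0.49). Exclusive gates leave out cells with counts of another gate's genes, but macrophages with counts of the monocyte genes Ly6c2 and Fn1 were kept. Ccl7 (log2 ratio -0.38) and Ccr2 (-0.19) were not called. In all, 1 of 8 members was called higher and 4 lower, where 10.1% of all genes were called higher and 3.22% lower. Both comparisons share the vehicle library. The median log2 ratio was -0.52 over the members and 0.069 over all genes tested. Macrophage markers, like Ccl8, were highest in p38KO. The 6 independent markers summed to 17567 CPM in vehicle, 20732 CPM in p38i and 29086 CPM in p38KO. Apoe was 20359 CPM in p38KO against 10625 CPM in vehicle. In p38i the marker sum was above that of vehicle, whereas Ccl8 was below it. Of the 12 dissociation-response genes, 5 were lower and 1 higher in p38KO macrophages. The part of these values in the chemokine levels was not tested.

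**Figure D3:**
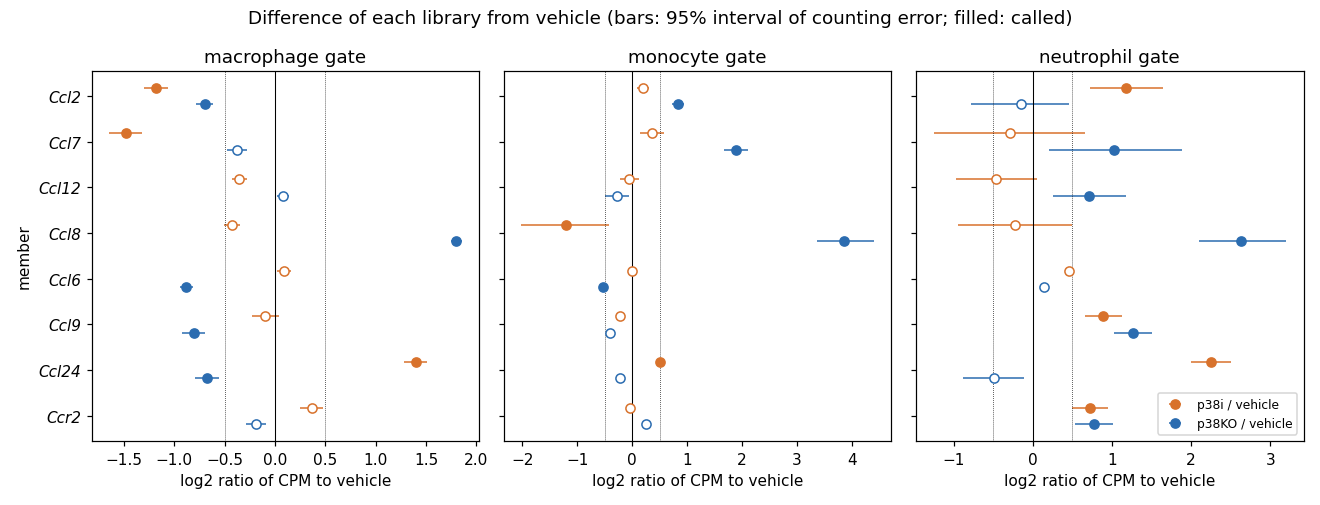
Log2 ratio of CPM to vehicle for the 8 members in the macrophage, monocyte and neutrophil gates, for p38i and p38KO, with 95% intervals of counting error; filled points are called and dotted lines mark 0.5 either way. In macrophages Ccl2 and Ccl7 lie at -1.18 and -1.48 for p38i, and Ccl8 lies at 1.80 for p38KO.

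The Ccl8 difference was spread over many macrophages. After each cell was thinned to 1500 UMIs, which left out none of the kept cells, 22.6% (16.8% to 29.3%) of vehicle, 21.5% (16.0% to 27.8%) of p38i and 54.6% (50.6% to 58.6%) of p38KO macrophages had a Ccl8 UMI. Unthinned shares were 42.5%, 44.0% and 76.7%, at median depths of 17401, 16818 and 13362 UMIs. In T cells, which should lack Ccl8, the thinned share was 0.524%, 0.150% and 3.09%, at median depths of 5239, 3993 and 4827 UMIs. That background was itself highest in p38KO, and in each library it was far below the macrophage share. Cells in which Ccl8 made up at least 10 of every 10000 UMIs were 16.1% of vehicle, 15.0% of p38i and 41.5% of p38KO macrophages.

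For Ccl2 the thinned share was 29.0% (22.6% to 36.1%) in vehicle, 16.0% (11.2% to 21.8%) in p38i and 22.6% (19.4% to 26.1%) in p38KO macrophages, while T cells had at most 1.09%. Unthinned, 58.1%, 52.0% and 56.1% of macrophages had a Ccl2 UMI, so the libraries lay closer in that share than in CPM. The 2 vehicle cells richest in Ccl2 held 17.4% of its counts. For Ccl7 the thinned share was 18.8% (13.5% to 25.2%) in vehicle, 13.5% (9.09% to 19.0%) in p38i and 21.6% (18.5% to 25.1%) in p38KO macrophages. The vehicle and p38i intervals overlap. Unthinned Ccl7 shares were 41.9%, 37.5% and 54.6%, and the richest 1% of cells held 26.8%, 12.6% and 19.2% of Ccl7 counts. Ccl24 was detected after thinning in 19.4%, 28.5% and 10.5% of macrophages, and in at most 0.451% of T cells. Without thinning the Ccl24 shares were 48.4%, 61.0% and 29.4%.

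**Figure D4:**
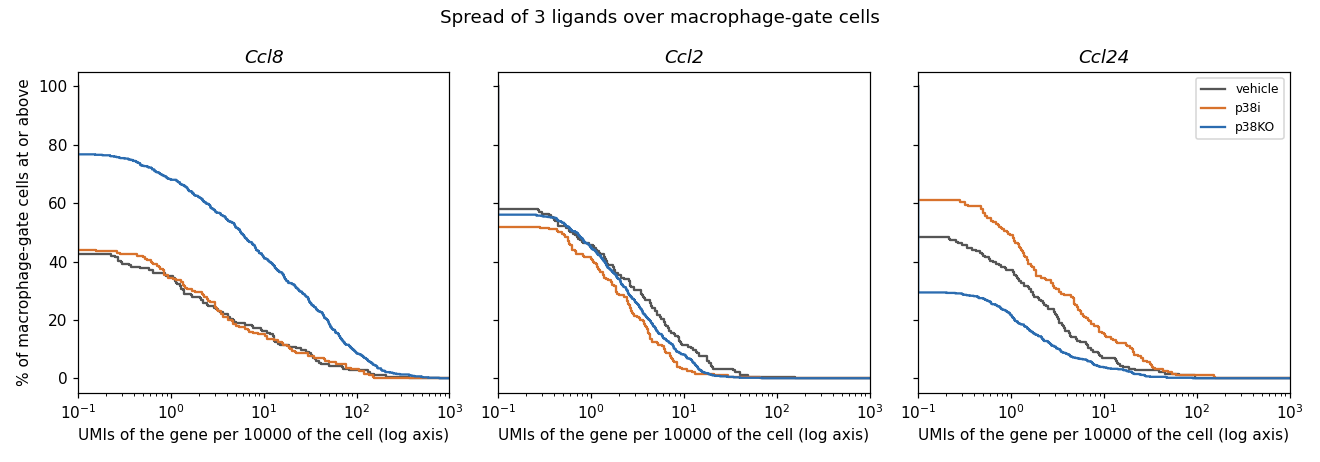
Percent of macrophage-gate cells (vertical axis) with at least the number of UMIs per 10000 of the cell given on the log horizontal axis, for Ccl8, Ccl2 and Ccl24 in the 3 libraries; cells without a UMI lie below the axis range. At 10 UMIs per 10000, Ccl8 reaches 41.5% of p38KO cells against 16.1% of vehicle cells.

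In the monocyte gate, the p38i library differed little from vehicle. Ccl24 was 991 CPM in vehicle and 1411 CPM in p38i, a log2 ratio of 0.51 (0.46 to 0.56) at the edge of a call, which was lost under 6 alternatives. Ccl8 was called lower from few counts, 36 in vehicle and 24 in p38i (7.86 and 3.40 CPM). T cells had 2.42 and 0.911 CPM of Ccl8 in these libraries. Thus 1 of 8 members was called higher and 1 lower, where 4.83% of all genes were called higher and 2.90% lower. Ccl6 was 1620 CPM in both libraries, and its log2 ratio was 0.00087 (-0.041 to 0.043). Ccl2 (log2 ratio 0.19), Ccl7 (0.36), Ccl12 (-0.060), Ccl9 (-0.23) and Ccr2 (-0.035) were not called. The lower Ccl2 and Ccl7 of p38i macrophages thus had no counterpart among called monocyte values, but the difference between the gates was not tested.

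In the monocyte gate of p38KO, Ccl2, Ccl7 and Ccl8 were higher than in vehicle and Ccl6 was lower, 3 and 1 of 8 members, where 10.6% of all genes were called higher and 2.42% lower. Ccl7 was 54.4 CPM in vehicle, 69.7 CPM in p38i and 201 CPM in p38KO, a log2 ratio of p38KO to vehicle of 1.88 (1.67 to 2.10). Ccl2 was 241 CPM in vehicle and 430 CPM in p38KO (0.83, 0.72 to 0.95). Few cells carried much of these counts. The 1% of p38KO monocytes with the most counts of the gene, 5 cells, held 44.4% of Ccl2 and 61.8% of Ccl7 counts. In vehicle the richest 1% held 27.1% of Ccl2 and 59.4% of Ccl7 counts. The Ccl7 call was kept under each alternative, with log2 ratios from 1.27 to 2.12. Without the top 1% in each library the Ccl2 log2 ratio was 0.45 and no longer called. Nor was it called with a minimum gate count of 1 (0.37) or with exclusive gates (0.49). The thinned share of monocytes with Ccl2 was 12.6% (9.80% to 15.9%) in vehicle and 16.2% (12.8% to 20.1%) in p38KO. Ccl8 was 7.86 CPM in vehicle and 114 CPM in p38KO (3.86, 3.37 to 4.39), and the richest 1% of cells held 74.8% of that. T cells of the same library had 21.1 CPM of Ccl8. Ccl6 was 1620 CPM in vehicle and 1116 CPM in p38KO (-0.54, -0.59 to -0.48), a call lost under 6 alternatives. Ccl12 (-0.28), Ccl9 (-0.40), Ccl24 (-0.23) and Ccr2 (0.25) were not called. Tumor epithelium markers summed to 127 CPM in p38KO monocytes, 5.90 CPM in vehicle and 4.96 CPM in p38i, with 3 to 4 of the 4 markers above 0, and Siglech, a plasmacytoid dendritic cell gene, was 317 CPM against 119 and 138 CPM. The 7 DC markers, Siglech among them, summed to 159 CPM in vehicle, 169 CPM in p38i and 408 CPM in p38KO monocytes. The 6 neutrophil markers were lower in p38KO monocytes, with sums of 10476, 8699 and 3325 CPM in vehicle, p38i and p38KO. Vehicle neutrophils had less Ccl6 (984 CPM) than vehicle monocytes. Apart from an alternative without Siglech cells, given below, the part of these markers in the chemokine values was not tested.

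Of the 8 members, Ccl6 had the most UMIs in neutrophils. Ccl6 was 984 CPM in vehicle, 1352 CPM in p38i and 1089 CPM in p38KO, and its log2 ratios of 0.46 and 0.15 were not called. After thinning, 35.7% to 40.3% (interval) of vehicle neutrophils, 47.0% of p38i and 40.8% of p38KO neutrophils had a Ccl6 UMI, against 2.27%, 2.56% and 2.18% of T cells. Unthinned shares were 47.6%, 56.7% and 48.9%, at median depths of 2536, 2290 and 2204 UMIs. In neutrophils with counts of Cxcr2, the receptor of mature neutrophils, Ccl6 was 936, 1348 and 1072 CPM, and in those without it was 1262, 1375 and 1217 CPM. The other 7 members stayed at or below 136 CPM. Ccl2, Ccl9, Ccl24 and Ccr2 were called higher in p38i (4 of 8, against 9.10% of all genes called higher), and Ccl7, Ccl8, Ccl9, Ccl12 and Ccr2 in p38KO (5 of 8, against 13.3% of all genes called higher). Ccl24 was 28.7 CPM (24.4 to 33.5) in vehicle and 136 CPM (127 to 145) in p38i, a log2 ratio of 2.25, but the richest 1% of cells held 91.8% of it. Among cells with no count of another gate's genes, the log2 ratio was 0.22 and not called. Macrophage markers in the neutrophil gate were all 6 above 0, with sums of 279, 398 and 597 CPM in vehicle, p38i and p38KO. Ccl9 and Ccr2 rose in the same order. Ccl2 and Ccl24 were instead highest in p38i, and Ccl7, Ccl8 and Ccl12 were lowest there. Ccl8 was 38.5 CPM in p38KO neutrophils and 21.1 CPM in p38KO T cells. Whether doublets or free RNA account for these low values was not tested.

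Ccr2 itself was not called in monocytes, at 1046 CPM in vehicle, 1021 CPM in p38i and 1242 CPM in p38KO. Its thinned share in monocytes was 66.0% (61.6% to 70.3%), 63.3% (60.0% to 66.6%) and 66.1% (61.3% to 70.7%), and the 3 intervals overlap. In macrophages Ccr2 was 305, 393 and 268 CPM, none of them called. NK cells carried the next highest Ccr2 in vehicle, 815 CPM, with 520 CPM in p38i and 539 CPM in p38KO, log2 ratios of -0.65 (-0.84 to -0.46) and -0.59 (-0.77 to -0.42) that were both called lower. In NK cells 5.59% (p38i) and 7.13% (p38KO) of all genes were called lower. The p38KO NK gate also held mast or basophil markers, with 753 CPM summed over 6 markers against 54.8 CPM in vehicle, 5 of the 6 above 0. The 5 NK markers summed to 8206 CPM in vehicle, 8461 CPM in p38i and 5228 CPM in p38KO, and the 6 macrophage markers to 43.8, 197 and 166 CPM, with 5 to 6 above 0. Their part in the Ccr2 values was not tested. Where cells with counts of another gate's genes, except Ly6c2, were left out, the p38KO log2 ratio was -0.42 and no longer called. T cells had 239, 172 and 193 CPM of Ccr2, with no call. DC had 163, 273 and 185 CPM, and the p38i value was called higher (log2 ratio 0.74, 0.28 to 1.22). In DC 7.73% of all genes were called higher in p38i. That gate held only 21 vehicle and 41 p38i cells, with 53 and 143 Ccr2 counts. The order in vehicle was thus monocyte, NK, macrophage, T, DC and neutrophil gate, and none of the neighbours in it had overlapping intervals. The closest were T cells (224 to 256 CPM) and DC (122 to 213 CPM).

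Over all kept cells, the chemokine content of the CD45+ pool depends on the number of cells as well as on their levels, and fewer cells of a type and less RNA per cell cannot be told apart in such sums. Ccl8 was 149 CPM in vehicle, 91.7 CPM in p38i and 1199 CPM in p38KO. Per 1000 kept cells, macrophages contributed 789 Ccl8 UMIs in vehicle, 446 in p38i and 7389 in p38KO, or 16.2, 10.7 and 46.1 UMIs per macrophage. Both the number of macrophages and the UMIs per macrophage were higher in p38KO. Ccl12 reached 2434 UMIs from macrophages per 1000 kept p38KO cells against 854 in vehicle, although UMIs per macrophage were 15.2 and 17.5. UMIs per macrophage also follow depth, a median of 17401, 16818 and 13362 UMIs in vehicle, p38i and p38KO. Scaled to CPM, Ccl12 was 948 in p38KO and 897 in vehicle macrophages. Ccl2 from macrophages was 489 UMIs per 1000 kept cells in vehicle, 164 in p38i and 812 in p38KO. Ccl24 from monocytes was 1187, 2078 and 786 UMIs per 1000 kept cells.

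The ligands of CCR2 were found together in the same cells. In thinned monocytes with a Ccl7 UMI, 81.2% (54.4% to 96.0%) of 16 cells in vehicle, 75.8% of 33 in p38i and 81.0% of 21 in p38KO also had Ccl2, against 10.3%, 10.9% and 12.8% of monocytes without Ccl7. In macrophages with Ccl2, 64.8%, 68.8% and 65.7% also had Ccl12, against 29.5%, 31.5% and 39.2% of macrophages without it. The Ccl2 and Ccl12 intervals did not overlap in any library. Ccl9 and Ccl6 formed another pair, with Ccl6 in 69.8%, 67.3% and 46.2% of Ccl9-positive macrophages and in 39.8%, 35.8% and 24.0% of the others. For Ccl8 and Ccl2 the intervals overlapped in each library. Ccl2 was found in 23.8%, 20.9% and 23.7% of macrophages with Ccl8 and in 30.6%, 14.6% and 21.4% of those without, in vehicle, p38i and p38KO. In p38KO macrophages, Ccl7 was found in 28.1% (23.4% to 33.2%) of cells with Ccl8 and 13.9% (10.1% to 18.5%) of those without, and Ccl12 in 54.4% (49.0% to 59.8%) and 34.2% (28.6% to 40.0%). In vehicle and p38i the intervals of these 2 pairings overlapped. In p38KO macrophages Ccr2 was found in 16.6% (12.8% to 21.0%) of cells with Ccl8 and in 31.3% (25.9% to 37.1%) of those without. The order was the same in vehicle (21.4% and 29.2%) and p38i (25.6% and 36.9%), where the intervals overlapped. Cells of 1 library are not replicates, and these intervals cover counting error.

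Other genes of the positive cells were ranked by the smallest difference over the 3 libraries, on a log2 scale after 50 was added to the CPM of thinned cells. Macrophages with Ccl8 had more Ms4a7, Apoe, Selenop, C4b, Cp and Vcam1, and less Ifitm1, Cxcl2, S100a10, S100a6, Bnip3 and S100a11. Apoe, a lipid carrier of mature macrophages, was 22381 CPM in cells with Ccl8 and 8306 CPM in cells without it in vehicle, 28977 and 12030 CPM in p38i, and 31065 and 12624 CPM in p38KO. Macrophages with Ccl2 had more Ccl7, Ccl12, Cxcl10, Hspd1, Itpripl2 and Nrp1. Cxcl10, an interferon-induced chemokine, was 407 against 202 CPM in vehicle, 250 against 67.5 CPM in p38i and 357 against 168 CPM in p38KO. Monocytes with Ccl24 had more Pf4, Mrc1, Cxcl3, Ccl12, Spp1 and Ccl6. The platelet factor gene Pf4, which macrophages also express, was 1144 CPM in vehicle monocytes with Ccl24 and 68.2 CPM in those without. The lower genes, among them Klk1, Siglech, Tcf4, Ccr9 and Rnase6, include markers of plasmacytoid dendritic cells. A cell with a UMI of a gene also tends to be richer in RNA of its own type, and these differences are a description with no test.

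Within the macrophage gate, cells with and without counts of Ly6c2, a marker of classical monocytes, differed in the members. Cells with Ly6c2 were 13.4% (vehicle), 11.0% (p38i) and 13.4% (p38KO) of macrophages. In cells without Ly6c2, Ccl8 was 938, 648 and 3185 CPM, and in cells with Ly6c2 it was 55.1, 298 and 1241 CPM. Ccr2 went the other way, at 260, 357 and 239 CPM without Ly6c2 and 626, 752 and 421 CPM with it. So both in cells with and in cells without Ly6c2, Ccl8 was highest in p38KO. In p38i, Ccl24 was 1905 CPM in the 22 macrophages with Ly6c2 and 511 CPM in the rest, against 476 and 209 CPM in vehicle. In p38KO the order was the other, with 117 CPM in macrophages with Ly6c2 and 159 CPM in those without. Ccl2 in macrophages without Ly6c2 was 540 CPM in vehicle, 207 CPM in p38i and 302 CPM in p38KO. With Ly6c2 it was 322 (272 to 378), 413 (345 to 490) and 395 (364 to 427) CPM, from 25, 22 and 83 cells. The vehicle interval overlaps those of p38i and p38KO. Ccl2 was thus lower than in vehicle in the cells without Ly6c2, while the few cells with it show no clear order. The difference between these sets of cells was not tested.

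Cycling macrophages, with Mki67 or Top2a counts, were 32.8%, 24.0% and 35.2% of the gate and were deeper, with a median of 27237 against 13381 UMIs in vehicle. They held more Ccl12 and less Ccl6, Ccl9, Ccl24 and Ccr2 in each library. Ccl12 was 1073, 1018 and 1141 CPM with and 735, 550 and 772 CPM without these counts. For Ccl6 the values were 537, 484 and 307 CPM with and 1148, 1116 and 609 CPM without. Ccl8 was 2288 CPM in cycling and 3417 CPM in other p38KO macrophages, 721 and 927 CPM in vehicle, and 617 and 616 CPM in p38i. Ccl2 had no common order, at 471 CPM in cycling and 551 CPM in other vehicle macrophages, 343 and 170 CPM in p38i, and 359 and 277 CPM in p38KO.

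**Figure D5:**
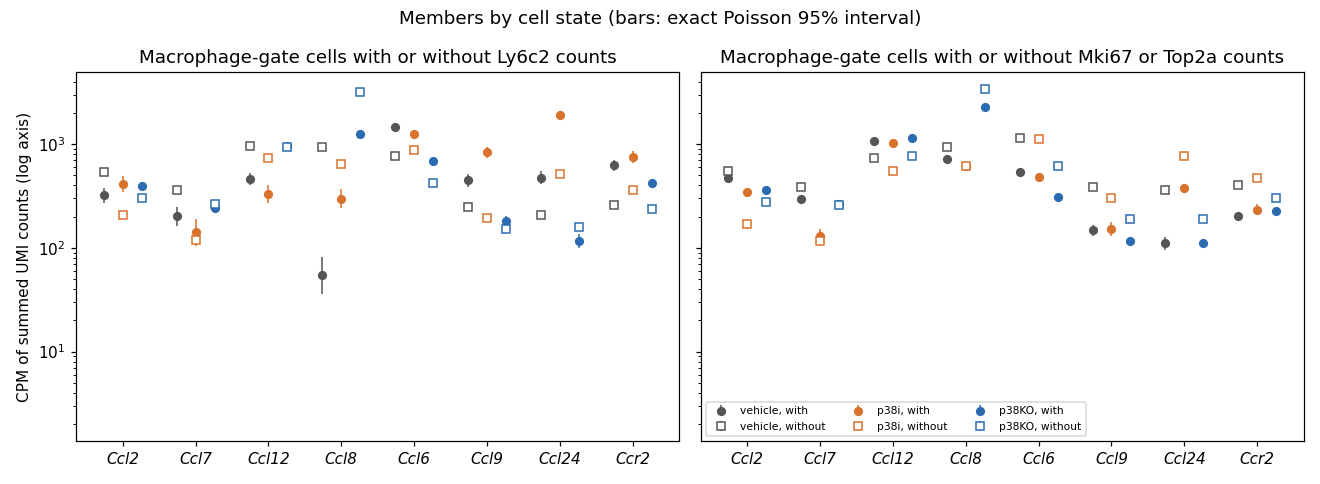
CPM (log axis) of the 8 members in macrophage-gate cells with (filled circles) and without (open squares) Ly6c2 counts, left, or Mki67 or Top2a counts, right, in the 3 libraries, with exact Poisson 95% intervals. Ccl8 is 938 CPM without and 55.1 CPM with Ly6c2 in vehicle, and Ccl12 is higher in cycling cells of each library.

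Across the 18 sums of 6 gates and 3 libraries, Pearson's r of log2(CPM + 1) was 0.91 between Ccl2 and Ccl7, 0.92 between Ccl7 and Ccl12 and 0.88 between Ccl6 and Ccl9. Ccl2 had an r of 0.69 with Ccl8, 0.79 with Ccl9 and 0.78 with Ccl24. Ccr2 had an r of -0.020 with Ccl6, 0.061 with Ccl8 and at most 0.45, with Ccl24. Among 10480 other genes, those most like each member were Slc16a7, Plau and Tlr7 for Ccl2 (r 0.93 to 0.93), Slc16a7, Ms4a7 and Homer3 for Ccl7 (0.93 to 0.95) and Gpx3, Ms4a7 and Nxpe5 for Ccl12 (0.95 to 0.96). For Ccl8 they were Cp, C1qa and Vcam1 (0.94 to 0.96), of which C1qa defined the macrophage gate. Ccl6 was like Eif4ebp1 and Pgam1 (0.96 to 0.98), Ccl9 like F13a1, Lrp1 and Rab5c (0.96 to 0.96), Ccl24 like Tfec, F7 and Zfyve9 (0.94 to 0.96) and Ccr2 like Cmpk1, Lamtor4 and Acly (0.90 to 0.91). The 18 points share libraries, so r is a description of where genes are found.

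The counts of the lists that follow stand beside these shares of all genes called: 2.95% higher and 4.54% lower in p38i macrophages, 10.1% and 3.22% in p38KO macrophages, 4.83% and 2.90% in p38i monocytes, and 10.6% and 2.42% in p38KO monocytes. The median log2 ratio over all genes tested was -0.0057 and 0.069 in macrophages and 0.046 and 0.11 in monocytes of p38i and p38KO. Of 13 other ligands on a fixed list, CC chemokines and Cx3cl1, 4 had enough counts in p38i macrophages and 3 were lower, with a list median log2 ratio of -0.95. Ccl3, a ligand of CCR1, was 67.9 CPM in vehicle and 29.7 CPM in p38i (-1.19). Ccl4, an inflammatory chemokine of macrophages and lymphocytes, was 174 and 65.1 CPM (-1.42), and Ccl5 was 205 and 125 CPM (-0.72). In p38KO macrophages 1 of 6 was higher and none lower (median 0.029): Ccl22, at 3.13 CPM against 0 in vehicle. In monocytes 2 of 5 were higher and 2 lower in p38i (median -0.28), and 1 was higher and 1 lower in p38KO (median 0.53). Ccl4 was 314 CPM in vehicle, 139 CPM in p38i and 209 CPM in p38KO monocytes. So the lower Ccl2 and Ccl7 in p38i macrophages stood beside lower Ccl3 and Ccl4.

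Of 15 other chemokine receptor genes, macrophages had 1 of 5 lower in p38i (list median -0.27) and 2 higher and 2 lower of 6 in p38KO (median 0.058). Monocytes had 2 of 8 lower in p38i (median -0.27) and 2 higher and 2 lower of 7 in p38KO (median -0.29). Ccrl2, an atypical receptor that presents chemerin, was lower in both gates and both libraries, at 89.3, 36.9 and 60.7 CPM in macrophages and 238, 107 and 153 CPM in monocytes of vehicle, p38i and p38KO. Ccr1 was 356, 373 and 380 CPM in macrophages and was not called. Cx3cr1, the receptor of non-classical monocytes and many macrophages, was 546 CPM in vehicle, 514 CPM in p38i and 899 CPM in p38KO macrophages, and the p38KO value was called higher.

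The lists of macrophage state gave mixed counts in the macrophage gate. Of alternative activation genes, 2 of 9 were higher and 1 lower in p38i (median 0.21), and 3 of 10 higher in p38KO (median 0.24). Cd163, a scavenger receptor, was 2.20, 6.05 and 11.9 CPM in vehicle, p38i and p38KO. Chil3, on the same list, was 11.3, 4.03 and 26.2 CPM, called lower in p38i (-1.48) and higher in p38KO (1.22). Both levels rest on few counts, since 3 counts made 0.824 CPM in vehicle macrophages. Of resident-like macrophage genes, none of 8 was higher and 2 were lower in p38i (median -0.43), and 3 were higher and 1 lower in p38KO (median 0.44). Timd4, which takes up apoptotic cells, was 30.8, 8.35 and 3.73 CPM, while Igf1 was 52.3 CPM in p38KO and 12.6 CPM in vehicle. Lipid-associated genes were 1 of 8 higher in p38i (median 0.20), and 2 higher and 3 lower in p38KO (median -0.22). Classical monocyte genes were 1 higher and 1 lower of 8 in p38i (median -0.12), and 4 higher and 2 lower in p38KO (median 0.45). In the monocyte gate, alternative activation genes gave 1 higher and 2 lower of 8 in p38i (median -0.16) and 1 higher in p38KO (0.23). Resident-like genes there gave 1 lower of 4 in p38i (-0.30) and 1 lower of 5 in p38KO (-0.060). Lipid-associated genes gave 1 lower of 8 in p38i (0.047) and 1 higher and 2 lower in p38KO (0.012). Classical monocyte genes gave 3 lower of 8 in p38i (-0.29) and 1 higher and 2 lower in p38KO (-0.035). Of the dissociation response, 9 of 12 genes were lower in p38i (-0.77) and 6 lower with 1 higher in p38KO (-0.54). Ifitm6, an interferon-induced membrane gene of monocytes, was 390, 249 and 258 CPM in monocytes of vehicle, p38i and p38KO.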

How the data were processed

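Sorted CD45+ cells of 3 libraries (vehicle, p38i and p38KO, each 3 pooled tumors) were analysed. The deposited values are raw UMI counts per gene and barcode, made by the authors on mm10 with Cell Ranger 6.0.0, as the matrix header states; the submitters' processing notes also name R 4.2.1 and Seurat 5. They are filtered matrices with no normalization, and the lowest barcode of each library held 500 UMIs. Gene symbols and barcodes were read from the deposited files.

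Counts of kept cells were gated in a fixed order (macrophage, neutrophil, T, NK, DC, monocyte), summed per gate and library and scaled to CPM. The T, NK and DC gates needed at least 1 count of Cd3e, Ncr1 or Flt3. Intervals are exact Poisson (CPM), exact conditional binomial (ratios) and exact binomial (Clopper-Pearson; shares) at 95%. Thinning drew 1500 UMIs per cell with random seed 1. With 1 library per group nothing was tested, and no doublet caller was run: cells with a count of another gate's genes (exclusive gates) and the 1% deepest cells were left out as alternatives. Exclusive gates still allowed Ly6c2 and Fn1 counts in macrophages, and Ly6c2 counts in T and NK cells. The ratio calculation was tested on simulated counts drawn independently for each gene, as the intervals assume. Counts clumped in a few cells were not simulated, so that test does not check the calls of such genes. Python 3.11.15, numpy 2.4.6, scipy 1.17.1, pandas 2.3.3 and matplotlib 3.10.9 were used.

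The members and lists were chosen with earlier results of these data known. Named genes were the 8 members, list genes called in both comparisons in the macrophage or monocyte gate (at most 4 per list and gate) and the 3 genes most like each member; other named genes, and the genes of positive cells, were chosen after their values were seen. Some genes that these rules name are not reported here.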

Additional observations from a re-analysis of the deposited data

Results flagged for a closer look

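Ccl2 was called in opposite directions in different gates of the same library, which flagged it, and the difference between the gates was not tested. In p38KO its log2 ratio to vehicle was -0.70 in macrophages and 0.83 in monocytes, and each of these calls was lost under some alternatives, such as exclusive gates (-0.49 and 0.49). In p38i it was -1.18 in macrophages and 1.18 in neutrophils, where 81.1% of the Ccl2 counts lay in the richest 1% of cells. That neutrophil call was lost with exclusive gates (0.20) and without those richest cells (0.43). Ccl9 in p38KO was flagged in the same way, with a log2 ratio of -0.81 in macrophages and 1.26 in neutrophils, where the richest 1% of cells held 88.2% of its counts. Without them the neutrophil log2 ratio was 0.24 and not called. These differences between gates, too, were not tested.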

How the results depend on the processing

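No paired analysis was possible because each group has 1 library. With a call at a log2 ratio of 1, the called members were 1 in p38KO macrophages (main 5), 1 in p38i monocytes (main 2), 2 in p38KO monocytes (main 4), 2 in p38i neutrophils (main 4) and 3 in p38KO neutrophils (main 5). In p38i monocytes 1 member was called with at most 5% mitochondrial counts, with median-ratio scaling, and without the 1% of cells richest in the gene. In p38i neutrophils the mean of per-cell CPM called 7. That alternative has no interval and calls by size and counts alone, so its 7 is not like for like with the main 4. In p38KO neutrophils leaving out the 1% of cells richest in the gene left 3. No called log2 ratio changed sign under these alternatives. The Ccl2 and Ccl7 calls in p38i macrophages, the Ccl8 call in p38KO macrophages and the Ccl24 call in p38i macrophages were kept under each alternative, with log2 ratios from -1.70 to -1.08, -1.70 to -1.22, 1.67 to 2.10 and 0.76 to 1.66. So were the Ccl7 (1.27 to 2.12) and Ccl8 (3.08 to 4.69) calls in p38KO monocytes. The Ccl2 call in p38KO macrophages was lost with a minimum gate count of 1 (-0.48) and with exclusive gates (-0.49), and the Ccl24 call there with a minimum gate count of 4 (-0.44). Leaving out monocytes with at least 2 Siglech counts kept 15 results of the members the same and lost 1 call. Leaving out cycling macrophages kept 14 results the same and added 2 calls. Both settings were added after the data were seen. The causes were not tested.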

Other observations

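Cells with at least 5 counts of Cpa3, a mast cell protease gene, were taken from NK-gate and ungated cells only. This set was chosen after its values were seen. The cells of the set numbered 3 in vehicle, 6 in p38i and 81 in p38KO. Their Ccl2 was 38 counts in vehicle (3956 CPM), 19 counts in p38i (761 CPM) and 244 counts in p38KO (717 CPM). In vehicle 1 of the 3 cells held 92.1% of these counts, so that value is largely of 1 cell. In p38KO they also held 95 Ccl7 counts (279 CPM), but 2 counts each of Ccl8, Ccl12 and Ccl24. Ccr2 was at 5 counts there, and of 83 Ccl6 counts 96.4% lay in 1 cell.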
